A study of Homo sapiens with 24 samples.

Results

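The response of SLFN11 knockout cells to 2 Gy of gamma radiation, read 24 h later, was measured on 6 of the 24 arrays of the series. These are the 3 arrays titled as knockout, 2 Gy, 24 h and the 3 titled as knockout, 0 Gy, 24 h, chosen by title alone. ES8 is an established human Ewing sarcoma line. The knockout cells (ES8-1F2) are 1 derivative line of ES8 made with CRISPR/Cas9, so all 6 arrays carry the same SLFN11 edit, and only the dose differs between them. Parental ES8 cells given the same doses, and knockout cells read 4 h after irradiation, are set beside them; every group holds 3 arrays. Cells grew in DMEM/F12 with serum, and the labels do not tell if replicate arrays came from different cultures. The p-values therefore cover only array-to-array spread, which could be technical.

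Ionising radiation breaks DNA. The kinases ATM and ATR signal the breaks to checkpoint kinases, which hold the cell cycle, and to p53, which raises genes such as CDKN1A, a cyclin-dependent kinase inhibitor, and MDM2, its own antagonist. Later changes can include secreted factors, interferon-stimulated genes and stress response genes. SLFN11 is an RNA- and DNA-binding protein that blocks stressed replication forks and is known for making cells sensitive to DNA-damaging drugs. As RNA came from whole cultures, a change in the level per cell and a change in the share of cells in some state cannot be told apart.

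Values are log2 signals per gene on Affymetrix whole-transcript arrays. Over the 6 arrays, the median signal of 17687 genes lay between 5.28 and 5.31. The background level, the 95th percentile of 612 negative control probe sets, lay between 3.54 and 3.71, and 12117 genes were above it on all 6 arrays. Arrays of the same dose correlated at 0.990 to 0.993 and arrays of different doses at 0.990 to 0.994 (Pearson's r over genes, not independent points). The edited gene itself was lower in this line than in parental cells at each time and dose: at 24 h the mean SLFN11 signal was 7.04 ± 0.05 (SD, n = 3) at 0 Gy and 6.91 ± 0.15 (SD, n = 3) at 2 Gy, against 8.41 ± 0.11 and 8.42 ± 0.18 in parental cells. Its change with dose in knockout cells was -0.12 (SE 0.13), not called. The Ewing sarcoma markers measured, CD99, NKX2-2, STEAP1, CCND1, PRKCB, LIPI, KDSR and GLI1, were above background on all 6 arrays, and their mean ran from 7.99 to 8.03 at 0 Gy and from 7.94 to 7.99 at 2 Gy. Markers of epithelial, blood, endothelial and fibroblast cells were above background on all 6 arrays for 5 of 12, 4 of 11, 5 of 10 and 5 of 9 genes, with means per array of 3.93 to 4.18, 3.78 to 4.01, 4.32 to 4.48 and 4.99 to 5.16 over the 6 arrays. Among them ELF3 (0.44), HBA1 (0.38), LAPTM5 (below background on 2 of 3 unirradiated and all irradiated arrays) and THY1 (0.49) had a dose difference at an unadjusted p below 0.05; the part of other cells in the results was not tested.

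With all 24 arrays in 1 fit and no pairing of replicates, no gene passed at 24 h in knockout cells (limma with Benjamini-Hochberg adjustment over 17687 genes, lowest adjusted p 0.924, for TFPI2), so 0% were called in either direction. An unadjusted p below 0.05 was reached by 736 genes, 4.16% of those tested, of which 352 (1.99%) were higher and 384 (2.17%) lower. The groups did not overlap for 1717 genes (9.71%), 836 higher (4.73%) and 881 lower (4.98%). If dose made no difference, 3 arrays would separate fully from 3 others with a probability of 0.1. An unadjusted p below 0.05 would then be reached with a probability of 0.05. Neither share exceeds these values, so a lack of overlap alone is not read as a response below. The median 95% interval of a change reached 0.315 log2 units on either side, before any adjustment and with the spread taken from all 24 arrays. Arrays with the same replicate number deviated together here, with correlations of 0.13, 0.22 and 0.24 between their deviations from the group means, so the replicate number was also used as a block, which tests the 3 differences within same-numbered pairs. Blocked over all 24 arrays, 2 genes were higher (0.0113%) and none lower: ETV5 and TFPI2, which are named for these calls. Blocked on the 6 arrays alone, 42 genes were called (0.237%), 34 higher (0.192%) and 8 lower (0.0452%). The last fit has 2 residual degrees of freedom and takes most of its error from the spread common to genes of like signal (65 prior degrees of freedom). Without pair 1, 2 or 3 it called 15, 22 and 58 genes, of which 11, 17 and 23 were among the 42. The genes ETV5, TFPI2, GPR83 and TUBA4A were called in each of these 4 fits.

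ETV5, an ETS transcription factor of the PEA3 group whose transcript rises with ERK signalling, changed most. Its signal was 3.97, 3.90 and 3.91 on the 3 unirradiated arrays and 5.14, 5.53 and 5.16 in the irradiated ones. Every irradiated array lay more than 1 unit above every unirradiated one. The change was 1.35 (2.55-fold, 95% interval 0.67 to 2.03), with an adjusted p of 9.37e-07 in the blocked limma fit of the 6 arrays, 0.000259 blocked over all arrays, and 0.999 without the block. The 4 h arrays enter the last error estimate, and there ETV5 was 3.64, 4.72 and 5.36 at 0 Gy and 3.23, 4.44 and 5.24 at 2 Gy, spread widely between replicate numbers at either dose. The change at 4 h was -0.26, and the responses at 24 h and 4 h differed by 1.61 (SE 0.47), called only with the block over all arrays (limma adjusted p 0.00697, and 0.9998 without it). ETV5 was the 1 gene called in that comparison of times, against 0 without the block (577 genes, 3.26%, at an unadjusted p below 0.05).

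TFPI2, a secreted inhibitor of serine proteases held in the extracellular matrix, had an even response. The unirradiated signals were 8.63, 8.37 and 8.27 and the irradiated ones 9.12, 8.96 and 8.81. Within same-numbered pairs it was higher by 0.49, 0.59 and 0.54. The mean change was 0.54 (1.45-fold, 95% interval 0.30 to 0.77; limma adjusted p 4.99e-07 blocked on the 6 arrays and 0.0118 blocked over all arrays). At 4 h it had changed by 0.09.

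**Figure D1:**
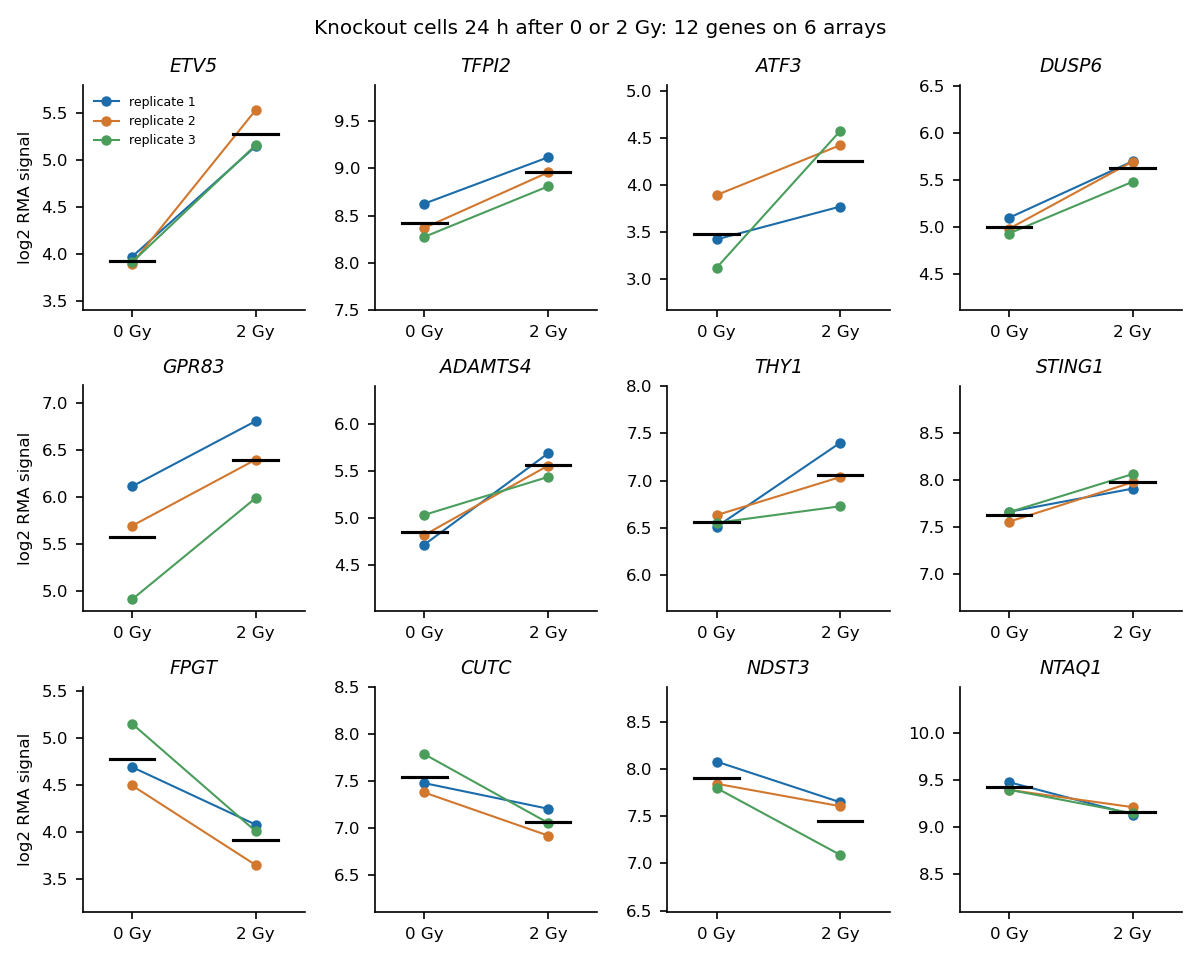
Log2 RMA signal of 12 genes in knockout cells 24 h after 0 Gy or 2 Gy (x axis); each line joins the arrays of 1 replicate number, bars are means of 3, and every y axis spans 2.4 log2 units. The first 8 panels slope upward in every pair and the last 4 downward; in GPR83 the replicates start far apart (4.91 to 6.11) and move in parallel.

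Of the other 32 genes called higher in the blocked fit of the 6 arrays, GPR83, a G protein-coupled receptor, differed more between replicate numbers than between doses. It read 6.11, 5.69 and 4.91 at 0 Gy and 6.80, 6.39 and 5.99 at 2 Gy. The groups overlapped, while the paired differences of 0.69, 0.70 and 1.08 all pointed up (mean 0.82, blocked limma adjusted p 0.000263). TUBA4A, an alpha tubulin, was higher by 0.33, with signals of 9.39, 9.32 and 8.98 against 9.64, 9.56 and 9.47 (blocked limma adjusted p 0.00335). TIAM2, an exchange factor for the GTPase RAC1, was below background on every unirradiated array (3.60, 3.58 and 3.45) and above it on every irradiated one (4.43, 4.43 and 4.25), at least 1.59-fold higher. ATF3, a stress-induced repressor of the ATF/CREB family, read 3.43, 3.90 and 3.13 at 0 Gy, only the second of them above background, and 3.77, 4.43 and 4.58 at 2 Gy. These groups overlapped and the paired differences ran from 0.35 to 1.45 (mean 0.78, blocked limma adjusted p 0.0435).

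Roles are given for some of the remaining called genes. Among secreted and matrix-related genes, the aggrecan-degrading protease ADAMTS4 was higher by 0.70, with 4.72, 4.82 and 5.04 at 0 Gy and 5.69, 5.56 and 5.44 at 2 Gy. The enamel matrix gene AMBN was higher by 0.74, the angiotensin-converting enzyme ACE by 0.78 and the lipid carrier APOE by 0.36. Of transcription factors, ETV1, another ETS member of the PEA3 group, was higher by 0.58 and the homeobox gene DLX1 by 0.51. At the cell surface, THY1 (CD90) was higher by 0.49 and the sphingosine-1-phosphate receptor S1PR1 by 0.53. The GTPase RHOC (0.42), the nuclear lamin gene LMNA (0.47) and BASP1 (0.33) belong to the cytoskeleton, nuclear envelope and membrane cortex. STING1, the adaptor of cytosolic DNA sensing, read 7.66, 7.55 and 7.65 against 7.90, 7.97 and 8.06, a change of 0.36 with no overlap. UBE2L6, which conjugates the interferon-induced modifier ISG15, was higher by 0.50, and APOL2, an apolipoprotein L gene, by 0.68. The smallest change was that of the ribosomal protein gene RPLP1 (0.22), whose many pseudogene copies its probes may not separate. All 34 were higher in each of the 3 pairs and the groups did not overlap for 24 (4.73% of all genes were higher without overlap). Both counts follow largely from the choice of the 34 on these same arrays. In the unblocked fit 4 of the 34 (ETV1, FAXDC2, FAM162B and SMAGP) had a 95% interval that included 0. The groups of BASP1, DLX1 and UBE2L6 overlapped. Their paired differences were uneven, at 0.05, 0.76 and 0.17 for BASP1, 0.22, 0.26 and 1.06 for DLX1, and 0.75, 0.18 and 0.58 for UBE2L6. Those of ACE were 0.61, 1.31 and 0.43, and its second unirradiated array (3.54) was below background.

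The 8 genes called lower were FPGT, NSUN7, FSD1L, NCAM2, CUTC, NDST3, TRMT9B and NTAQ1, with changes from -0.87 to -0.26. FPGT, an enzyme of fucose salvage, fell most: it read 4.69, 4.49 and 5.15 at 0 Gy and 4.08, 3.65 and 4.01 at 2 Gy. NCAM2, a neural cell adhesion molecule, changed by -0.70, with overlapping groups. CUTC, a copper-binding protein, read 7.47, 7.37 and 7.78 against 7.20, 6.92 and 7.05. NDST3, which modifies heparan sulfate, changed by -0.46 (blocked limma adjusted p 0.00746), with 8.08, 7.85 and 7.80 against 7.65, 7.61 and 7.09. NTAQ1, a glutamine amidase of the N-degron pathway, lay far above background (9.48, 9.40 and 9.40 against 9.14, 9.22 and 9.15). FPGT and NSUN7 lay close to the background level at 2 Gy, where 1 irradiated array of NSUN7 read 2.93.

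Genes with large changes and no overlap but no call, with or without the block, included KIF5C, a neuronal kinesin heavy chain (at least 1.48-fold higher, being below background at 0 Gy), and PDE1C, a calmodulin-dependent phosphodiesterase (0.72, SE 0.21). In the other direction ERCC4, the XPF nuclease of nucleotide excision and crosslink repair, read 5.55, 5.54 and 5.86 at 0 Gy and 5.25, 5.04 and 4.87 at 2 Gy (-0.60, SE 0.20). ZRANB3, a translocase that remodels stalled replication forks, read 5.12, 4.94 and 5.23 against 4.53, 4.52 and 4.55 (-0.57, SE 0.19). The genes AFG1L (-0.63), KLHL35 (-0.60), IAH1 (-0.58), NUDT13 (-0.55) and EDA2R (-0.55) had changes of the same order without a call either.

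The promoter windows of called genes were searched for 4 short motifs, and those of TFPI2, DLX1 and ATF3 are shown because the first 2 hold an AP-1 motif, the site that JUN, FOS and ATF3 proteins are known to bind, and ATF3 encodes such a protein. Each is a window of 300 bases around the gene's start, most of it upstream, written 5′ to 3′ from RefSeq on GRCh38.p14, with the AP-1 letters in capitals: TFPI2 at chr7:93890704-93891003 (minus strand), DLX1 at chr2:172085257-172085556 (plus strand) and ATF3 at chr1:212565157-212565456 (plus strand).
TFPI2: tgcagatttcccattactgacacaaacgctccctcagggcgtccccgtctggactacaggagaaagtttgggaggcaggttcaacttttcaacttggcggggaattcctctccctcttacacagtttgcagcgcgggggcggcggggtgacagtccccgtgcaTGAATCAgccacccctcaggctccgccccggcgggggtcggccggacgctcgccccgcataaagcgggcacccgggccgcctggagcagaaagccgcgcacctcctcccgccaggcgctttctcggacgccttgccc
DLX1: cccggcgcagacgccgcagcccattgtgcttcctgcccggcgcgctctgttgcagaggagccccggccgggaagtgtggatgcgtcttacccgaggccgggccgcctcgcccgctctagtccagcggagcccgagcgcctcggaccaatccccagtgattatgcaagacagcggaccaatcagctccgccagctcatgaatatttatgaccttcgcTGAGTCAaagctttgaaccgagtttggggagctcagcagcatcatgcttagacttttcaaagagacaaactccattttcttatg
ATF3: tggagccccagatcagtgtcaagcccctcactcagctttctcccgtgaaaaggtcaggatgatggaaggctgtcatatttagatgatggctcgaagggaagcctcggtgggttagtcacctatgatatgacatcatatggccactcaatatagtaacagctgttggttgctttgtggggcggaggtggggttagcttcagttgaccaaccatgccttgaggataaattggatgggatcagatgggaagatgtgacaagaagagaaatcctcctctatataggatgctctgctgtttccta

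Of the 34 genes called higher, 27 matched a promoter in the RefSeq table; ETV5 did not. The AP-1 motif (TGANTCA, N being any base, both strands) lay in 2 of the 27, a share of 7.41%, against 5.75% of the promoters of 14250 tested genes. The full cyclic AMP response element (TGACGTCA) was in none of the 27 and in 2.62% of all, an ETS motif (CCGGAAG) in 2 (7.41%) and 14.3% of all, and the amino acid response element (TGANGCAA) in 1 (3.70%) and 2.83% of all. None of these shares was tested. A match is a string of letters and not a measured site. The ATF3 window held none of the 4. Sequence outside it was not searched, so this says nothing of any other start of the gene.

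ERK feedback genes were read together after ETV5 had been seen, so their values are a description. DUSP6, the ERK phosphatase, read 5.10, 4.98 and 4.93 at 0 Gy and 5.70, 5.70 and 5.48 at 2 Gy, a change of 0.62 (SE 0.20, 95% interval 0.22 to 1.03) with no overlap and a blocked limma adjusted p of 0.0566, just short of a call. SPRY1 (0.55, SE 0.26, and -0.78 in parental cells), SPRED2 (0.33, SE 0.21) and DUSP5 (0.27, SE 0.17), all inhibitors within the ERK pathway, had positive changes without a call, and SPRY4, below background on every unirradiated array, was at least 1.01-fold higher, also without a call. ETV4 (0.12), PHLDA1 (0.06), IER3 (0.03), SPRY2 (-0.01), CCND1 (-0.02) and DUSP4 (-0.14) lay near 0. Over the 16 genes read, the median change was 0.15, against -0.00 over all genes, and 2 were called higher with the block (0.192% of all genes), ETV1 and ETV5, the gene that prompted the choice.

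**Figure D2:**
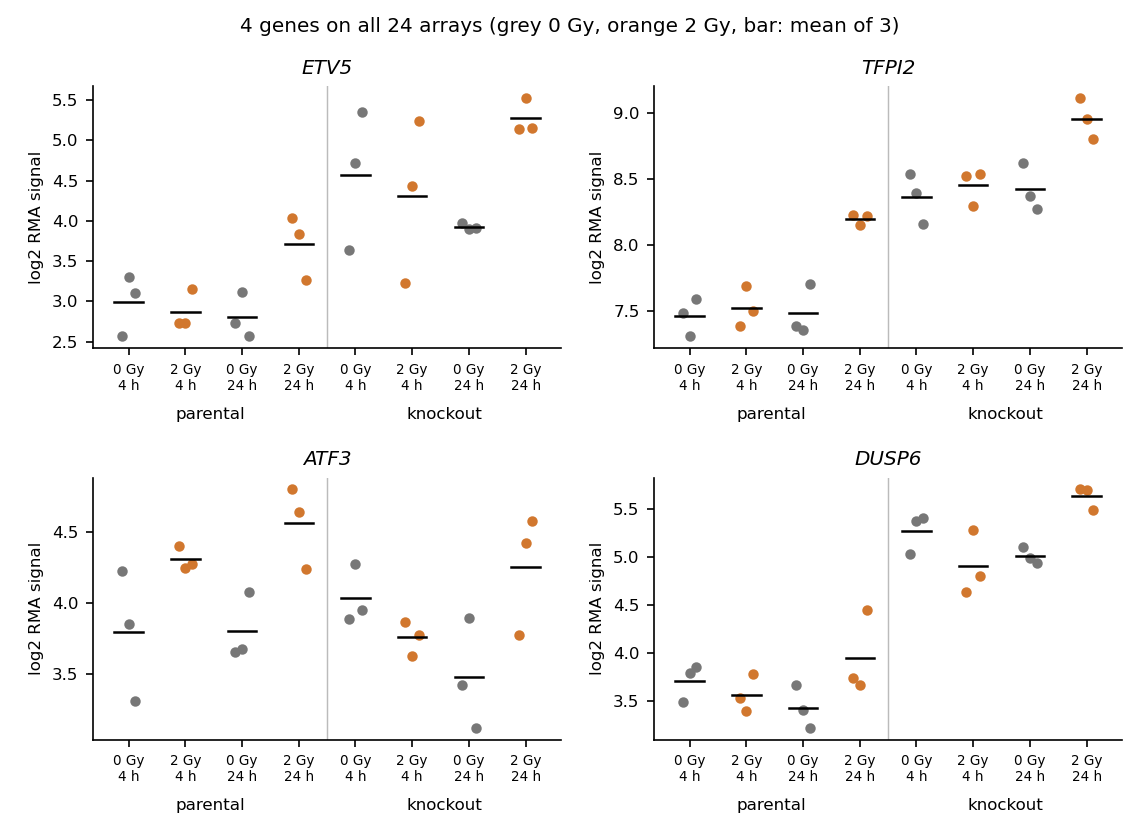
Log2 RMA signal of ETV5, TFPI2, ATF3 and DUSP6 on all 24 arrays by line, dose and time (x axis); dots are arrays and bars means of 3. In knockout cells at 24 h the irradiated arrays of ETV5, TFPI2 and DUSP6 lie above all unirradiated ones, while at 4 h the doses overlap in each of the 4 genes except ATF3, whose irradiated arrays lie lower.

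The p53 targets had no common direction. Of 37 measured, 3 were higher and 3 lower at an unadjusted p below 0.05 (1.99% and 2.17% over all genes), with a median of 0.03 (-0.01 to 0.06 without 1 array). CDKN1A read 5.10, 5.07 and 4.98 at 0 Gy and 5.85, 5.47 and 5.33 at 2 Gy. Its groups did not overlap, but the change of 0.50 (SE 0.23, 95% interval 0.04 to 0.96) was not called (limma adjusted p 0.999, and 0.204 blocked on the 6 arrays). FUCA1, a lysosomal fucosidase, was the 1 target called higher with the block (0.192% of all genes were), with a change of 0.42. Its groups overlapped and its paired differences were uneven, at 0.50, 0.05 and 0.70. TP53INP1 was above background on none of the unirradiated and 2 of the irradiated arrays. GADD45A, a stress sensor that inhibits CDK1, had a mean of 6.08 ± 0.12 (SD, n = 3) at 0 Gy and 5.66 ± 0.08 (SD, n = 3) at 2 Gy, with no overlap (-0.42, SE 0.15, not called). MDM2 (-0.13, SE 0.14), GDF15 (0.04, SE 0.22), SESN1 (-0.07, SE 0.24) and the death receptor FAS (0.26, SE 0.19) were also not called. Of 22 BCL2 family and death receptor genes none had an unadjusted p below 0.05.

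Cell cycle genes had changes near 0. None of 46 mitosis genes reached an unadjusted p below 0.05, and their changes ran from -0.22 to 0.09 with a median of -0.03 (-0.07 to 0.00 without 1 array). CCNB1, cyclin B1, read 9.18, 9.12 and 9.12 at 0 Gy and 9.16, 9.11 and 9.19 at 2 Gy, a change of 0.01 (SE 0.10), where at 4 h it had been -0.46 on other arrays. PLK1, the polo-like kinase, changed by -0.05 (SE 0.07) at 24 h and -0.26 at 4 h, and the proliferation antigen MKI67 by -0.11 (SE 0.09) and -0.28. The median of the mitosis list was -0.27 at 4 h. Without the block, CCNB1, PLK1 and MKI67 were not called at 4 h (limma adjusted p 0.117, 0.526 and 0.93). Their differences between 24 h and 4 h were not called with or without the block. The list medians of the times were not tested against each other. Among 46 replication genes only the kinase CDC7 had an unadjusted p below 0.05 (-0.31, SE 0.14), where 2.17% of all genes were lower. The median of the replication list was 0.01 (-0.01 to 0.04 without 1 array). E2F1 (0.21, SE 0.13) and cyclin E2, CCNE2 (0.33, SE 0.22), were not called. The 45 replication-dependent histone genes had a median of 0.01, with medians of 0.04, -0.10 and 0.15 in the pairs, and none at an unadjusted p below 0.05.

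DNA repair and checkpoint genes had medians just below 0 and no call. Of 22 damage sensors and checkpoint kinases, NBN (-0.33, SE 0.14) and RAD50 (-0.16, SE 0.08), subunits of the complex that detects broken ends, were lower at an unadjusted p below 0.05, and the histone variant H2AX was higher (0.13, SE 0.07). Over all genes, 2.17% were lower and 1.99% higher at that level. The median of the list was -0.05. Homologous recombination and Fanconi anemia genes (24 measured, 18 below 0) and end joining genes (17 measured, 11 below 0) each had a median of -0.06 and no member at an unadjusted p below 0.05. Of all 17687 genes, 8956 were below 0. For the homologous recombination and Fanconi anemia list the pair medians were -0.03, 0.04 and -0.17, and the median ran from -0.08 to 0.02 without 1 array.

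Interferon-stimulated genes had 5 of 40 members at an unadjusted p below 0.05, all higher (1.99% of all genes were), but the unirradiated signals of OAS1 and MX1 were all below background. STING1 was the 1 called higher with the block (0.192% of all genes). IFI6 read 7.10, 7.09 and 7.10 at 0 Gy and 7.50, 7.25 and 7.38 at 2 Gy (0.28, SE 0.11). IFIT1 (0.50, SE 0.20) was above background on 1 unirradiated and 3 irradiated arrays, OAS1 on 0 and 2, and MX1 on none. ISG15 changed by 0.05 (SE 0.20), and 16 of the 40 genes were above background on all 6 arrays. The median of the list was 0.06, and 0.05 to 0.06 in each pair. Among 26 NF-kB and cytokine genes none had an unadjusted p below 0.05; CXCL8 was below background on every array and CCL2 changed by 0.23 (SE 0.20).

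Genes repressed by EWSR1-FLI1, the fusion transcription factor of Ewing sarcoma, and matrix genes had medians above 0. Of 21 repressed genes 18 had a change above 0, against 49.3% of all genes, with a median of 0.19 and pair medians of 0.20, 0.14 and 0.24. On all 6 arrays 13 of the 21 were above background and 3 were below it. Other lists also leaned up, with 22 of 27 ribosomal protein genes and 19 of 26 NF-kB and cytokine genes above 0. FN1, fibronectin, read 6.33, 6.09 and 5.93 at 0 Gy and 6.67, 6.43 and 6.43 at 2 Gy (0.39, SE 0.16), and ITGA5, the alpha subunit of its receptor, changed by 0.27 (SE 0.13). In the matrix and contractile list of 40 genes the median was 0.12, with COL4A2, a basement membrane collagen chain, at 0.40 (7.15, 7.19 and 6.76 against 7.34, 7.45 and 7.51) and COL5A2 at 0.43 (SE 0.19). None of the repressed, matrix or contractile genes was called with or without the block, and no list was tested as such. The 9 fibroblast markers measured had a median of 0.07, THY1 among them. Genes activated by the fusion had a median of 0.01 (-0.03 to 0.03 without 1 array), with KCNAB3, a potassium channel subunit (-0.38), and the neuropeptide receptor NPY1R (0.34, SE 0.15) at the ends of their range.

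**Figure D3:**
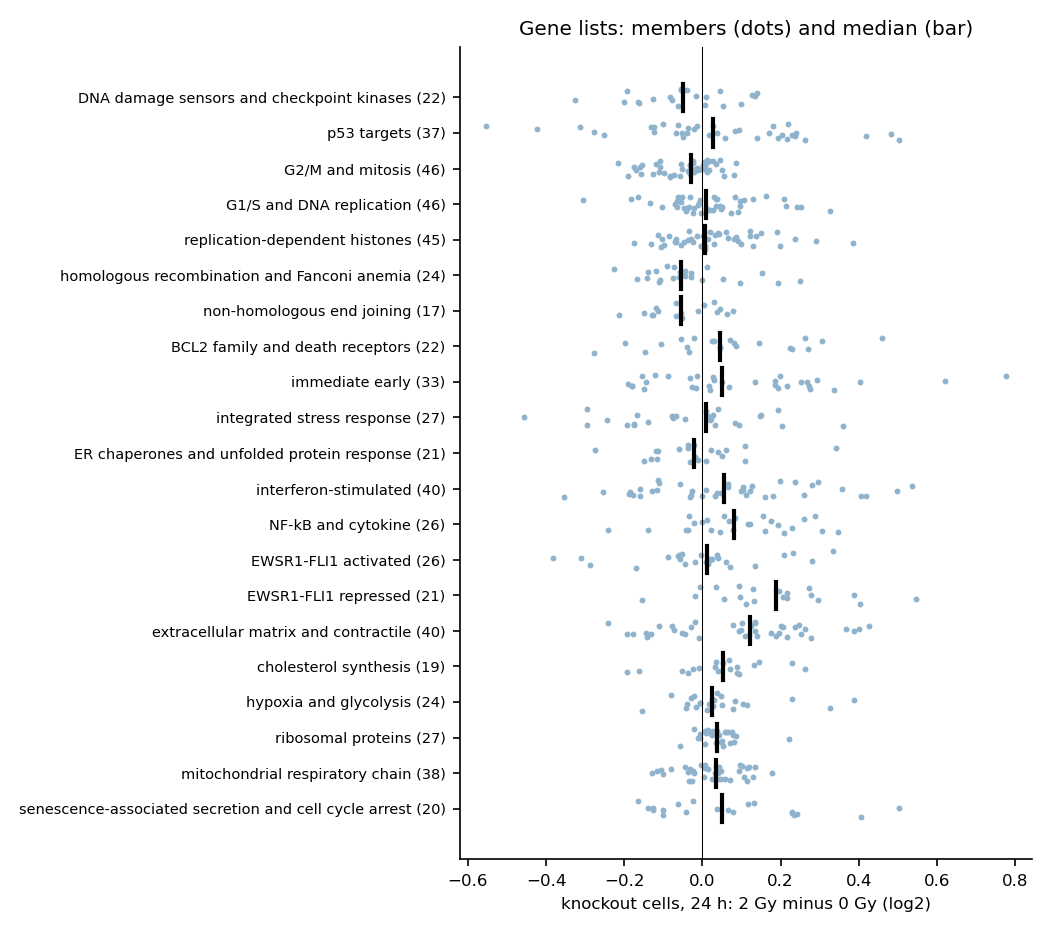
Change from 0 Gy to 2 Gy (log2, x axis) of every measured gene of 21 lists in knockout cells at 24 h; dots are genes, bars list medians, and the number of genes is in brackets. Medians lie between -0.06 and 0.19, the highest being that of genes repressed by EWSR1-FLI1.

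Immediate early genes had 2 of 33 members at an unadjusted p below 0.05, ATF3 and DUSP6, both higher (1.99% of all genes were), with a median of 0.05. JUN read 4.25, 3.94 and 4.48 against 4.38, 3.38 and 4.36 (-0.18, SE 0.22), FOS changed by -0.15 (SE 0.18) and EGR1 by -0.03 (SE 0.28). Genes of the integrated stress response, which ATF4 drives when amino acids run short or translation stalls, had a median of 0.01 (-0.07 to 0.00 without 1 array). The transcription factor DDIT3 (CHOP) read 4.52, 4.91 and 4.80 at 0 Gy and 3.80, 4.68 and 4.39 at 2 Gy (-0.46, SE 0.21). The asparagine synthetase ASNS (-0.30, SE 0.13) and CEBPG (-0.24, SE 0.09) were also lower at an unadjusted p below 0.05, and CEBPB was higher (0.36, SE 0.14), none of them called. At that level 2.17% of all genes were lower and 1.99% higher.

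In parental cells on other arrays, the dose had been called for 12 genes, all higher (0.0678% of genes). This count fell to between 3 and 7 when 1 array was left out (CHAC1, CREB5 and TFPI2 without 0 Gy replicate 3) and was 202, 124 higher and 78 lower, with the block, although parental arrays of the same number did not deviate together (-0.02 to 0.09). TFPI2 was the 1 of them also called in knockout cells with the block over all arrays, and SMAGP, a small membrane glycoprotein, the other called on the 6 arrays (0.33 in knockout and 0.88 in parental cells). The stress-linked CREB5 had a change of 0.42 (95% interval 0.06 to 0.79) in knockout and 1.60 in parental cells, and PNRC1, a nuclear receptor coactivator, 0.27 and 0.63. The others were CHAC1, which degrades glutathione (0.15 and 1.22), NIBAN1 (-0.15 and 1.23), JUN (-0.18 and 1.19), ALDH1L2 (-0.17 and 0.87), CTH (-0.14 and 0.86), PMAIP1, a BH3-only cell death gene (-0.28 and 0.79), ADGRL4 (below background on every array of both lines at 24 h) and SLC43A1 (0.12 and 0.58). Since these 12 were chosen on the parental arrays, their gap is widened. No gene passed for a difference between the responses in the unblocked limma fit (lowest adjusted p 0.295, and 560 genes, 3.17%, at an unadjusted p below 0.05). With the block over all arrays 19 of 17687 genes passed, 5 of them from these 12, whose choice on the parental arrays favours such calls. The 5 were CREB5 (limma adjusted p 0.0045), CHAC1 (0.00829), PMAIP1 (0.00829), JUN (0.016) and ALDH1L2 (0.041), each lower in knockout cells. TFPI2 differed between the lines by -0.18 (95% interval -0.51 to 0.15).

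**Figure D4:**
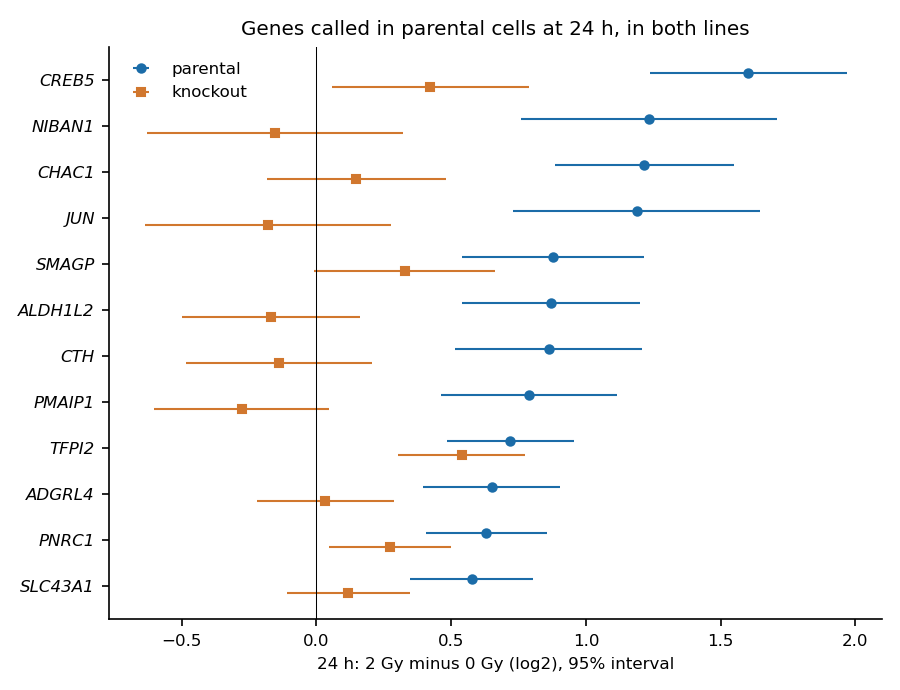
Change from 0 Gy to 2 Gy at 24 h (log2, x axis) with its 95% interval for the 12 genes called in parental cells, in parental (circles) and knockout cells (squares), 3 arrays per dose. The intervals of the lines overlap for TFPI2, SMAGP and PNRC1 but not for CREB5, CHAC1 or JUN.

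The reverse reading, from knockout to parental cells, takes its changes from arrays that had no part in the choice of genes. Yet same-numbered irradiated arrays of the lines deviated together (0.17, 0.23 and 0.15). The p-values use a spread pooled over all 24 arrays, among them the 6 of the choice. Counts at an unadjusted p are therefore not independent of that choice. Of the 34 genes called higher in knockout cells with the block, 30 had a change above 0 in parental cells (51.9% of all genes did), 16 of them at an unadjusted p below 0.05 (3.74% of all genes), and none was lower at that level (3.19% of all genes). These 16 were ADAMTS4, APOE, APOL2, ATF3, ELL2, ETV1, ETV5, FAXDC2, FUCA1, LMNA, RHOC, SMAGP, STING1, TFPI2, THY1 and TUBA4A. In parental cells ETV5 was below background at 0 Gy (2.74, 3.12 and 2.57) and above it on 2 irradiated arrays (4.04, 3.84 and 3.27), so that its change has only a bound. APOL2 had a change of 0.80 (SE 0.24), ATF3 one of 0.76 (SE 0.22), ADAMTS4 one of 0.76 (SE 0.17), ETV1 one of 0.66 (SE 0.29) and THY1 one of 0.48 (SE 0.13), and only TFPI2 and SMAGP passed the adjusted threshold there. The median of the 34 genes was 0.51 in knockout and 0.25 in parental cells. Their choice on the knockout arrays widens this gap. At 4 h in knockout cells 20 of the 34 were above 0 (51.4% of all genes were), with a median of 0.02. Of the 8 genes called lower, 7 were below 0 in parental cells (48.1% of all genes were), FSD1L and NTAQ1 at an unadjusted p below 0.05, and 6 at 4 h (48.5% of all genes were).

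Several of the 34 had values near or below 0 in parental cells. TIAM2 was below background on every parental array, and ACE on all but 1. NAP1L3 (0.74 and 0.03), AMBN (0.74 and 0.12) and CC2D2A, a ciliary transition zone gene (0.81 and -0.12) are given with the knockout value first, and CTDSPL, a small phosphatase, had 0.81 and -0.56. In knockout cells the CTDSPL groups overlapped, with 4.41, 3.89 and 3.51 at 0 Gy and 5.35, 4.95 and 3.95 at 2 Gy. The lowest of these signals was below background. The difference between the lines was 1.37 (SE 0.40) for CTDSPL and 0.93 (SE 0.28) for CC2D2A; neither was called without the block (limma adjusted p 0.9998), and CTDSPL was with it (0.0224). Since they were picked on the knockout arrays, this gap too is widened. Across all 17687 genes the 24 h responses of the lines correlated at 0.203, and those of knockout cells at 24 h and 4 h at 0.0536, as a description over genes that share arrays within each comparison but none between them.

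**Figure D5:**
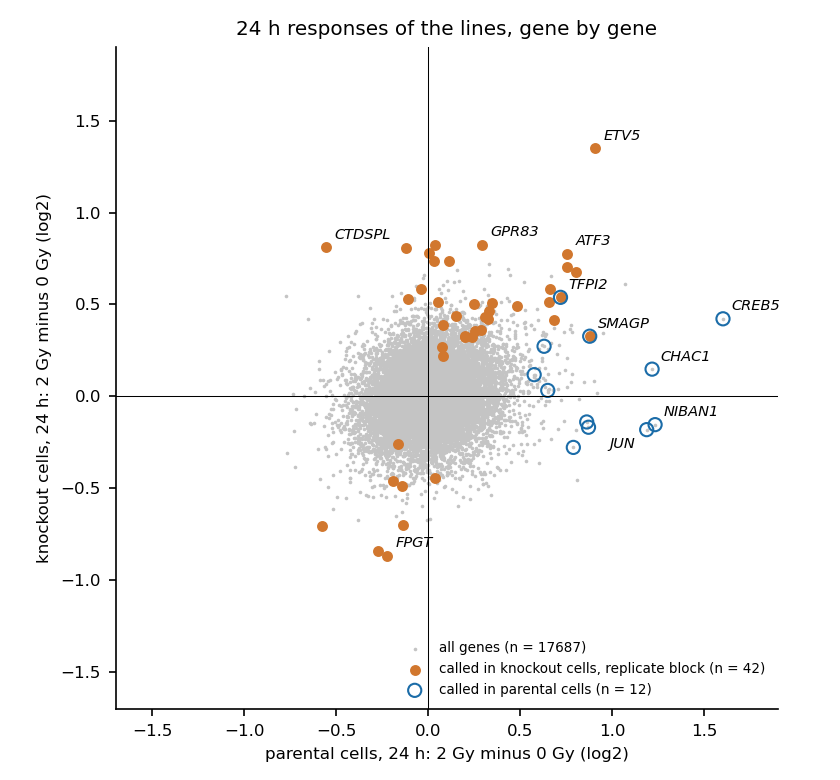
Change from 0 Gy to 2 Gy at 24 h (log2) in parental cells (x axis) and knockout cells (y axis), 1 dot per gene; filled dots are the 42 genes called in knockout cells with the block and circles the 12 called in parental cells. ETV5, ATF3 and TFPI2 lie in the upper right, JUN and NIBAN1 on the right just below 0, and CTDSPL in the upper left.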

How the data were processed

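Per the submitters' processing notes, the authors used RMA and Affymetrix Expression Console 1.1, and deposited log2 signals per probe set for 24 arrays; the set normalized in 1 run was not given in the sources used here. Of 24351 probe sets, 17709 have 1 symbol in the platform annotation; for 20 genes with several probe sets the brightest was kept, leaving 17687 genes, unfiltered. Some genes of the lists are not analysed here. Differences were tested with limma 3.58.1 in R 4.3.3 (lmFit, eBayes with intensity trend), 1 mean per group over all 24 arrays, at an adjusted p below 0.05. The replicate numbers in the titles counted as pairs in knockout cells because every same-numbered correlation of deviations was above 0.1 there (0.13 to 0.24 at 24 h). Parental pairs at 24 h were not (-0.02 to 0.09), yet the block over all 24 arrays covers them too. A named gene at or below background on all arrays of 1 dose is given as "at least N-fold" where that bound exceeds 1, and otherwise without a fold; the counts, list medians and plots keep such genes as fitted.

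Named genes are SLFN11, up to 10 largest non-overlapping changes per direction, up to 8 blocked calls per direction, the genes called in parental cells, 20 readouts (BBC3 not analysed here) and up to 4 members per list with an unadjusted p below 0.05; of these, IFIT1 and other weak members are given briefly or in counts. The other blocked calls and the ERK feedback genes were named after their values were seen. Members and lists were chosen with earlier results of these data known. With 3 arrays a group, an exact permutation test cannot go below p = 0.1, so none was used.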

Additional observations from a re-analysis of the deposited data

How the results depend on the processing

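The count of 0 genes in knockout cells at 24 h held with the 12 knockout arrays alone, a filter on dim genes, array weights, median centring, repeated quantile normalization, no intensity trend, all probe sets, and a replicate block shared by all arrays, and without each of the 6 arrays (0 to 0). It became 2 with the replicate block within line and time, 42 on the compared arrays with the block, 1 (ETV5) on them without it, and 13 on the 12 knockout arrays with the block; without 1 pair, the blocked fit of the compared arrays gave 15, 22 and 58 (15 to 58). All 42 genes kept their sign without each of the 6 arrays. They were chosen on these same arrays, so this lends them no separate support. The block shared by all arrays, that on the knockout arrays and the left-out pairs were added after seeing the data. The difference between the lines, 0 genes, became 19 with the block (11 of them lower in knockout cells, among them CREB5, CHAC1, JUN, DDIT3 and ASNS, and 8 higher, CTDSPL and 7 histone genes), and was 0 to 0 without each array; parental pairs of the same number correlated at only -0.02 to 0.09. The difference between the times, 0 genes, became 1 with the block and was 0 to 0 without each array. The parental count of 12 became 202 with the block and 28 on its own 6 arrays, and was 3 to 7 without each of them (3 without 0 Gy replicate 3 or 2 Gy replicate 1). The mean of both lines, 12 genes, became 237 with the block and 21 on the 12 arrays of 24 h, and was 6 to 9 without each of those. Of 21 list medians, 11 kept their sign under every alternative, among them matrix genes (0.07 to 0.18 without 1 array) and genes repressed by EWSR1-FLI1 (0.11 to 0.22); the other 10, p53 targets, mitosis, replication and histone genes among them, did not. All 28 genes with the largest changes or blocked calls kept theirs, which their choice on these same arrays makes likely. The number of arrays limits the precision.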

Other observations

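Averaging the 24 h responses of both lines with equal weight, a contrast added after the data were seen, called 12 genes (limma, 0.0678% of genes), 10 higher and 2 lower. Of the higher ones, these had a knockout change of 0.35 or more: ATF3 (0.78 in knockout and 0.76 in parental cells), ADAMTS4 (0.70 and 0.76), TFPI2 (0.54 and 0.72), THY1 (0.49 and 0.48), CREB5 (0.42 and 1.60), and BCL6, a transcriptional repressor (0.35 and 0.62). GAPT was below background at 0 Gy in both lines, so no fold is given. The 2 lower ones were POLR3G, a subunit of RNA polymerase III (-0.31 and -0.50), and SECISBP2, which binds the selenocysteine insertion element (-0.40 and -0.48). The rest, CHAC1, SMAGP and PNRC1, had larger values in parental than in knockout cells (1.22 and 0.15, 0.88 and 0.33, and 0.63 and 0.27). So had CREB5, and the line differences of CREB5 and CHAC1 were called with the block over all arrays. A gene strong in 1 line can pass this contrast. BCL6, GAPT, POLR3G and SECISBP2 were named after their values were seen.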
